A study of Mus musculus with 10 samples.

Results

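The circadian clock genes described here are 10 rows of the spleen expression table, chosen by gene name from its 54532 genes: Arntl, Clock, Per1, Per2, Per3, Cry1, Cry2, Nr1d1, Nr1d2 and Dbp. They were named to read the state of the clock in the 10 spleens, by a rule that uses no measured value. RNA was sequenced from the spleens of 5 wild-type (WT) C57BL/6J mice and 5 mice with a whole-body germline deletion of Dusp6 (Dusp6tm1Jmol, DUSP6 KO, called a knockdown in the sample labels). The sources used here do not give the genetic background of the deletion line. The mice were 8 to 12 weeks old. All 10 had KRN serum-induced arthritis (KSIA), in which 100 µL of pooled serum from arthritic mice was injected intraperitoneally on days 0 and 2. Spleens were taken on day 9, so there is no group without arthritis. The labels name mice of both sexes, whereas all 10 libraries carried male transcripts, with Xist at most 0.0206 FPKM and Ddx3y at least 14.4 FPKM. The hour of collection and the lighting schedule are not given in the sources used here.

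The mammalian clock is a feedback loop of transcription that runs in nearly every cell, spleen cells included. The proteins of Arntl (BMAL1) and Clock pair to activate the Per and Cry genes, the nuclear receptor genes Nr1d1 and Nr1d2 (REV-ERB alpha and beta) and the output gene Dbp. PER and CRY proteins then repress that pair, and the NR1D receptors repress Arntl, so Arntl peaks at about the opposite time of day from Dbp and Nr1d1.

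The DNA letters through which the loop acts can be read in the promoters of several of these genes, and those of Per1, Per3, Cry1 and Nr1d1 are shown because they hold the elements bound by the factors whose transcripts are described below. The windows, from RefSeq on GRCm38.p6, span 250 bases before to 50 after each gene start, and 9 of the 10 genes have at least 1. Only the stretch upstream of the start is printed, 5′ to 3′ on the strand of the gene. Capitals mark an E-box (CACGTG) or an E-prime box (CACGTT, here read as AACGTG on the opposite strand), the sites of the ARNTL and CLOCK pair, or a D-box (TTATGNAA), the site of DBP and its relatives TEF and HLF. The printed Per1 stretch lies at chr11:69098699-69098947 on the plus strand, and the other Per1 window, not printed, held none of these elements. The printed stretches of Per3 (chr4:151044666-151044915), Cry1 (chr10:85185065-85185304) and Nr1d1 (chr11:98775378-98775627) are on the minus strand.
Per1: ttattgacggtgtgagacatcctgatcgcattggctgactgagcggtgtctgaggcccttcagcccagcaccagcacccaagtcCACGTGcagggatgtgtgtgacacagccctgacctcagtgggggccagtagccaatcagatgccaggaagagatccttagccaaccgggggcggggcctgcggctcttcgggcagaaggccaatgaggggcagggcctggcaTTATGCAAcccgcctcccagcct
Per3: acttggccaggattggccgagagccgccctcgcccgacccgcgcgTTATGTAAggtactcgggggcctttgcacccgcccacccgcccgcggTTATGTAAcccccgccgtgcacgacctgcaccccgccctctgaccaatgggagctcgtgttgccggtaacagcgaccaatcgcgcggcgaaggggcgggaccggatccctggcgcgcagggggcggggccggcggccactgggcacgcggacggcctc
Cry1: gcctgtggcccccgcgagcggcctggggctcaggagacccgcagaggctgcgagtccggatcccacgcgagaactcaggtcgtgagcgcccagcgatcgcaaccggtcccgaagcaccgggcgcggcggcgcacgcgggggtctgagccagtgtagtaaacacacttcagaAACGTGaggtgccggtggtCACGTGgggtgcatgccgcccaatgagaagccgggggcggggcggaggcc
Nr1d1: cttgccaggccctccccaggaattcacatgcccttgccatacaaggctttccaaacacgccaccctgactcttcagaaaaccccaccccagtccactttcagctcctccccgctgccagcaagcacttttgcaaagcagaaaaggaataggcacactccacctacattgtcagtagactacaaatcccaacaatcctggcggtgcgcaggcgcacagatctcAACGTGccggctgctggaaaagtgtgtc
The Per1 stretch holds an E-box and a D-box, the Per3 stretch holds a pair of D-boxes with the same 8 letters, the Cry1 stretch holds an E-prime box and an E-box close together, and the Nr1d1 stretch holds an E-prime box. Over both strands of the 13 windows of the 9 genes, an E-box was found in 2 genes, an E-prime box in 3 and a D-box in 2. These counts are of genes, some with more than 1 window, whereas the shares that follow are of single windows. Among all 32851 windows of that length, 7.15% held an E-box, 4.68% an E-prime box and 3.38% a D-box. The element bound by the NR1D and ROR receptors (the ROR element), held by 0.606% of all windows, was found in 1 gene, Arntl, just after the start. The cAMP response element (TGACGTCA), in 1.79% of all windows, was found in 0 of the 9. None of these letters were found in the windows of Clock, Nr1d2 or Dbp. Such a match describes the letters of a window and does not show that a factor binds there.

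The depth of the groups overlapped, with 14990474 to 19822673 reads per DUSP6 KO library and 15611652 to 18422147 per WT library. Dusp6 itself averaged 0.440 ± 0.117 FPKM in DUSP6 KO against 19.4 ± 2.81 in WT (SD, n = 5 each, log2 fold change −5.19, SE 0.16, limma adjusted p = 1.33e-07). FPKM is a fragment count scaled by gene length and library depth. The 21296 genes that averaged 0.1 FPKM or more were compared with limma on log2(FPKM + 0.1), and p-values were adjusted over all of them by the Benjamini-Hochberg method. The added 0.1 pulls the fold changes of low genes towards 0. Each p sets a difference against the spread between mice, with 1 library per mouse. Whether all spleens were collected in 1 session is not given in the sources used here.

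All 10 clock genes passed the filter on low values, and 0 of them reached an adjusted limma p of 0.05, against 15 of all genes tested (0.0704%). At an unadjusted limma p under 0.05, 3 of the 10 were lower in DUSP6 KO (Nr1d2, Cry1 and Per3) and 0 were higher. Over all genes tested, 3.03% were lower and 2.62% higher at that threshold. Of the 10, 8 had a log2 fold change below 0 and 2, Arntl and Nr1d1, above 0. Their median was −0.23, whereas the median of all genes tested was −0.00464, with 51% of genes below 0. No clock gene of the 10 separated the groups without overlap, which 1.11% of all genes tested did. The 10 genes belong to 1 loop and are not independent of each other.

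**Figure D1:**
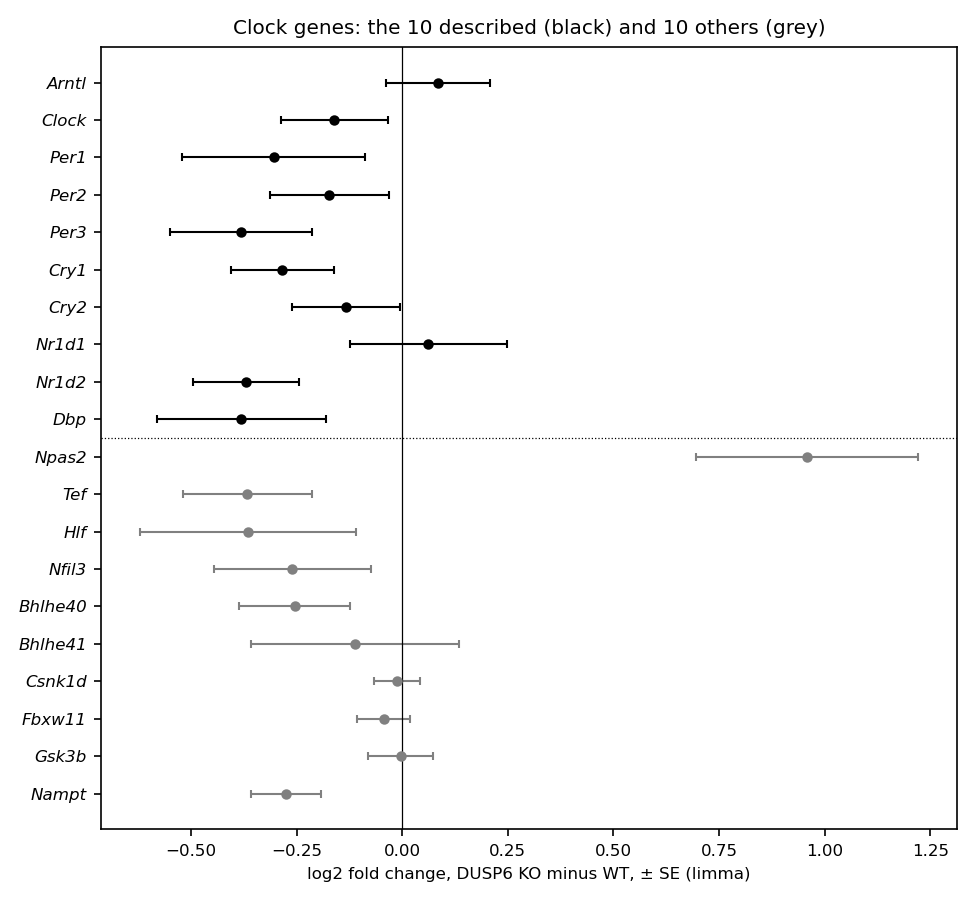
The log2 fold change (DUSP6 KO minus WT, limma, points) of each clock gene is plotted with its SE (bars), the 10 genes in black above the dotted line and 10 other clock genes named in the text in grey below it. Of the 10, 8 lie left of 0, with Dbp, Per3 and Nr1d2 farthest, and Npas2 lies farthest right of all at 0.96.

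The levels of the 10 genes, which FPKM allows to be compared per length, ran from a mean of 7.86 FPKM for Per1 over all 10 libraries to 0.944 for Per3. In between stood Nr1d2 (7.15), Cry1 (5.40), Nr1d1 (5.08), Dbp (4.98), Clock (2.76), Arntl (2.62), Cry2 (2.07) and Per2 (1.65). Each neighbour in this order overlapped the next in its range over libraries, except Per2 and Per3, where the lowest Per2 value (1.31) was above the highest Per3 value (1.28). Thus each of the 10 was expressed in every spleen, with 135 reads or more in each library.

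**Figure D2:**
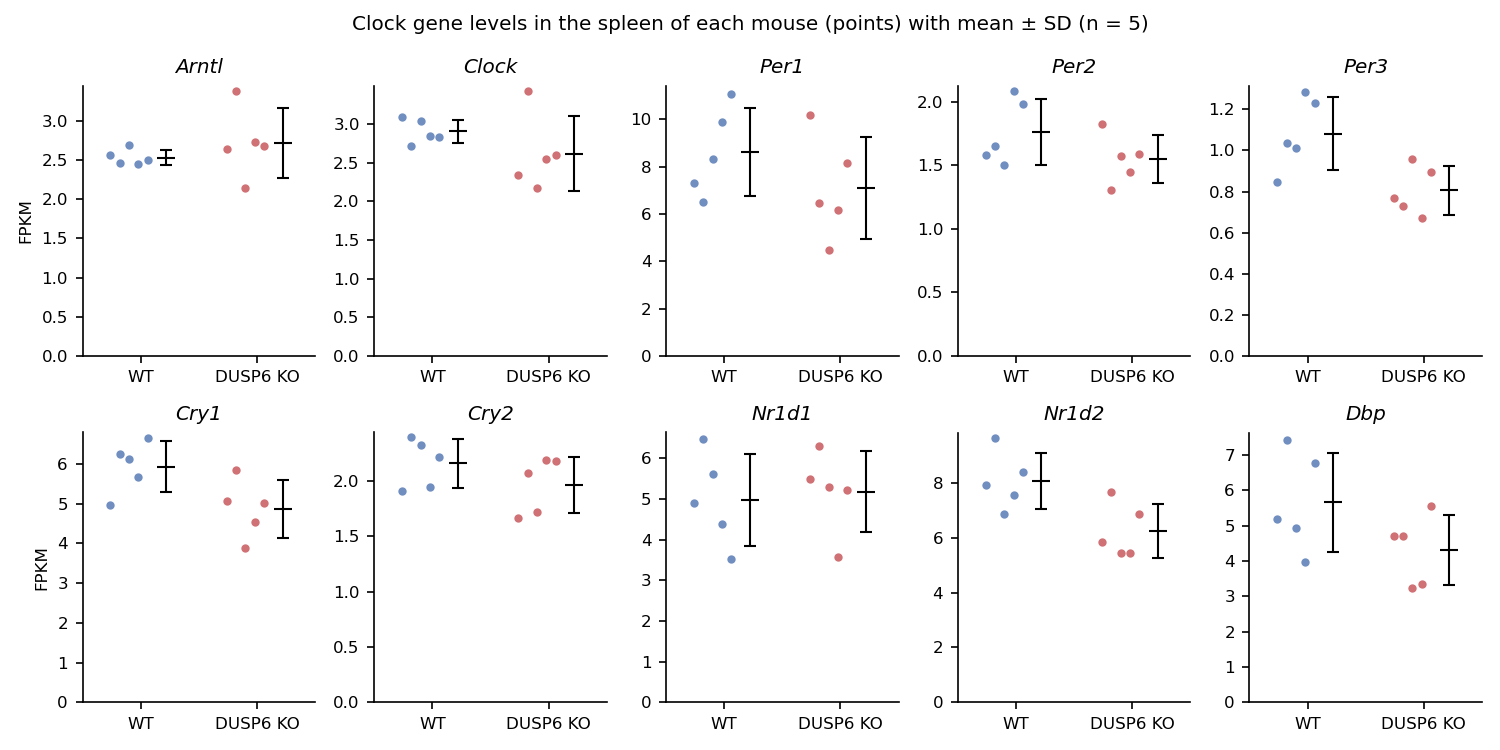
FPKM of the 10 genes is plotted in each spleen (points) with the group mean and SD (bars, n = 5), WT in blue and DUSP6 KO in red, with each axis starting at 0. The groups overlap in every panel, and the Arntl and Clock points of WT are packed more tightly than those of DUSP6 KO.

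Among the activators, Arntl, which encodes BMAL1, was at 2.64, 3.38, 2.14, 2.73 and 2.68 FPKM in the DUSP6 KO spleens, replicates 26, 21, 73, 01 and 03. In WT replicates 65, 67, 73, 77 and 83 it was at 2.57, 2.46, 2.69, 2.45 and 2.50 FPKM, all within the range of the DUSP6 KO values. The means were 2.72 ± 0.443 and 2.53 ± 0.0998 FPKM (log2 fold change 0.08, SE 0.12, limma adjusted p = 0.993). The WT values of Arntl had a coefficient of variation of 3.94%, below the 5.40% that counting of its reads alone would give, and the DUSP6 KO values 16.3%. Without DUSP6 KO replicate 21, which had the highest Arntl, the log2 fold change was 0.00427.

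Clock, the partner of Arntl, was at 2.34, 3.42, 2.17, 2.55 and 2.59 FPKM in the same order of DUSP6 KO spleens, and at 3.08, 2.72, 3.04, 2.85 and 2.83 FPKM in WT. Of the DUSP6 KO spleens, 4 were below every WT spleen and 1, replicate 21, was above them all. The log2 fold change was −0.16 (SE 0.13, limma adjusted p = 0.978). As with Arntl, the coefficient of variation was lower in WT (5.30%) than in DUSP6 KO (18.5%), the latter above the 3.90% from counting. The difference in spread itself was not tested.

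Npas2, a paralogue of Clock that can take its place beside BMAL1, is one of 24 further clock genes listed beside the 10. It was at 0.470, 0.698, 0.413, 0.867 and 0.956 FPKM in DUSP6 KO, against 0.244, 0.361, 0.218, 0.364 and 0.268 FPKM in WT. Every DUSP6 KO value was above every WT value, where 1.11% of all genes tested had groups that did not overlap. The log2 fold change was 0.96 (SE 0.26, limma p = 0.00409, adjusted p = 0.503), and a two-sided exact permutation test of the 5 against 5 values gave p = 0.00794, the smallest that this design allows. These levels rest on 18 to 90 reads per library. The log2 fold change was 0.84 to 1.095 when each library was left out in turn, with the lowest value without DUSP6 KO replicate 03. Its size depended on the scale, at 0.37 with a pseudocount of 1, 1.154 with a pseudocount of 0.01 and 1.163 with limma voom. At a minimum mean of 1 FPKM, Npas2 is not tested.

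Of the Period genes, which encode the PER repressors, Per1 had the widest spread. It was at 10.2, 6.48, 4.497, 6.15 and 8.14 FPKM in DUSP6 KO, against 7.31, 6.49, 8.34, 9.87 and 11.1 FPKM in WT. The groups overlapped over most of their range, although 3 DUSP6 KO spleens were below the lowest WT spleen. The coefficient of variation within groups was 30.5% and 21.6%, where counting gives 3.71%. The log2 fold change was −0.30 (SE 0.22, limma adjusted p = 0.963), and it was −0.16 without DUSP6 KO replicate 73, the spleen with the lowest Per1.

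Per2 was at 1.82, 1.31, 1.57, 1.45 and 1.59 FPKM in DUSP6 KO, against 1.58, 1.65, 1.505, 2.09 and 1.98 FPKM in WT. WT replicates 77 and 83 were the highest, and the groups overlapped otherwise (log2 fold change −0.17, SE 0.14, limma adjusted p = 0.978). Per3, the least expressed of the 10, was at 0.770, 0.728, 0.959, 0.673 and 0.897 FPKM in DUSP6 KO, against 0.846, 1.04, 1.014, 1.28 and 1.23 FPKM in WT. Of the DUSP6 KO spleens, 3 were below every WT spleen, and all 5 were below the WT median. The log2 fold change was −0.38 (SE 0.17, limma p = 0.0458, adjusted p = 0.866; exact permutation p = 0.0317).

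Of the Cryptochrome genes, which encode the partners of PER in repression, Cry1 was at 5.05, 5.85, 3.88, 4.55 and 5.02 FPKM in DUSP6 KO, against 4.96, 6.26, 6.11, 5.67 and 6.65 FPKM in WT. All 5 DUSP6 KO spleens were below the WT median, and 2 were below every WT spleen. The means were 4.87 ± 0.725 and 5.93 ± 0.647 FPKM (log2 fold change −0.28, SE 0.12, limma p = 0.0411, adjusted p = 0.849; exact permutation p = 0.0556). Cry1 lies at chr10:85131700-85185064 on the minus strand, 14.1 Mb from the deleted Dusp6 on the same chromosome. Cry2 was at 1.67 to 2.19 FPKM in DUSP6 KO, against 1.92 to 2.40 FPKM in WT, with 3 DUSP6 KO spleens inside the WT range (log2 fold change −0.13, SE 0.13, limma adjusted p = 0.978).

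Of the nuclear receptors that repress Arntl, Nr1d1 was at 5.49, 6.30, 5.30, 3.57 and 5.23 FPKM in DUSP6 KO, against 4.90, 6.49, 5.62, 4.38 and 3.52 FPKM in WT. The DUSP6 KO values all fell inside the WT range (log2 fold change 0.06, SE 0.19, limma adjusted p = 0.993). The sign changed without DUSP6 KO replicate 21 (−0.01) and without WT replicate 83 (−0.05).

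Nr1d2, its paralogue, had the lowest limma p of the 10 genes. It was at 5.83, 7.66, 5.43, 5.43 and 6.87 FPKM in DUSP6 KO, against 7.93, 9.61, 6.85, 7.56 and 8.39 FPKM in WT. All 5 DUSP6 KO spleens were below the WT median and 3 were below every WT spleen, whereas replicates 21 and 03 lay inside the WT range. The means were 6.24 ± 0.989 and 8.07 ± 1.03 FPKM, a log2 fold change of −0.37 (SE 0.12, limma p = 0.0136, adjusted p = 0.727; exact permutation p = 0.0397). The coefficient of variation of 15.9% and 12.7% within groups was above the 3.89% from counting. Without WT replicates 65 and 67, which carried genes of the exocrine pancreas, Nr1d2 had a log2 fold change of −0.29 and an unadjusted limma p above 0.05.

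Dbp, a transcription factor gene read as an output of the clock, was at 4.71, 4.69, 3.24, 3.35 and 5.54 FPKM in DUSP6 KO, against 5.198, 7.42, 4.92, 3.98 and 6.77 FPKM in WT. WT replicates 67 and 83 were above all other spleens, and DUSP6 KO replicates 73 and 01 below all others. The means were 4.30 ± 0.986 and 5.66 ± 1.41 FPKM (log2 fold change −0.38, SE 0.20, limma adjusted p = 0.942, exact permutation p = 0.119). Dbp shares 539 of its 2993 exon bases (18.0%) with Sphk2 on the opposite strand, and Nr1d1 shares 263 of 3077 (8.55%) with Thra. The sources used here do not give whether strand was used in counting, so part of these reads could belong to the neighbour. Sphk2 was at a mean of 9.08 and 9.83 FPKM, and Thra at 6.64 and 5.87 FPKM, in DUSP6 KO and WT.

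Of the 24 further clock genes, 22 passed the filter, with Arntl2 (3 to 16 reads) and Rorb (0 to 3 reads) below it. At an unadjusted limma p under 0.05, 1 was higher (Npas2) and 2 were lower (Nampt and Tef) in DUSP6 KO, with 0 past the adjusted threshold. Over all genes tested, 2.62% were higher and 3.03% lower at that unadjusted threshold. Of the 22, 7 were above 0 and 15 below, and their median was −0.03 on the log2 scale. Groups did not overlap for 1 of them (Npas2), against 1.11% of all genes tested.

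Tef and Hlf encode the relatives of DBP that bind the same D-box. Tef was at 4.29 to 6.39 FPKM in DUSP6 KO, against 5.50 to 8.01 FPKM in WT, with 3 DUSP6 KO spleens below every WT spleen (log2 fold change −0.37, SE 0.15, limma adjusted p = 0.827, exact permutation p = 0.0714). Hlf, far lower, was at 0.443 ± 0.156 and 0.571 ± 0.0401 FPKM (log2 fold change −0.36, limma adjusted p = 0.963), and DUSP6 KO replicate 01 was lowest at 0.187 FPKM. Nfil3, whose product represses through the D-box, was at 2.97 ± 0.691 and 3.53 ± 0.600 FPKM (log2 fold change −0.26, limma adjusted p = 0.963). Thus Dbp, Tef, Hlf and Nfil3 all had a lower mean in DUSP6 KO, and none passed the adjusted threshold. Without DUSP6 KO replicate 01 the log2 fold change was −0.15 for Hlf and −0.11 for Nfil3, and with a pseudocount of 1 it was −0.13 for Hlf.

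Nampt encodes the enzyme that limits NAD+ salvage and is driven through E-boxes. Its values were 10.96 to 13.5 FPKM in DUSP6 KO, against 13.2 to 16.3 FPKM in WT, and 4 DUSP6 KO spleens were below every WT spleen (log2 fold change −0.27, SE 0.08, limma p = 0.0076, adjusted p = 0.593; exact permutation p = 0.0159). The E-box repressor gene Bhlhe41 was at 1.495 ± 0.350 and 1.67 ± 0.545 FPKM (log2 fold change −0.11, limma adjusted p = 0.993), with a change of sign, to 0.02, without WT replicate 73. Of genes for kinases and ubiquitin ligases that act on clock proteins, the kinase genes Csnk1d, Csnk1e and Gsk3b had log2 fold changes of −0.01 (SE 0.05), 0.12 (SE 0.14) and −0.00359 (SE 0.08). The ligase genes Fbxw11 and Btrc had −0.04 (SE 0.06) and 0.19 (SE 0.30).

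**Figure D3:**
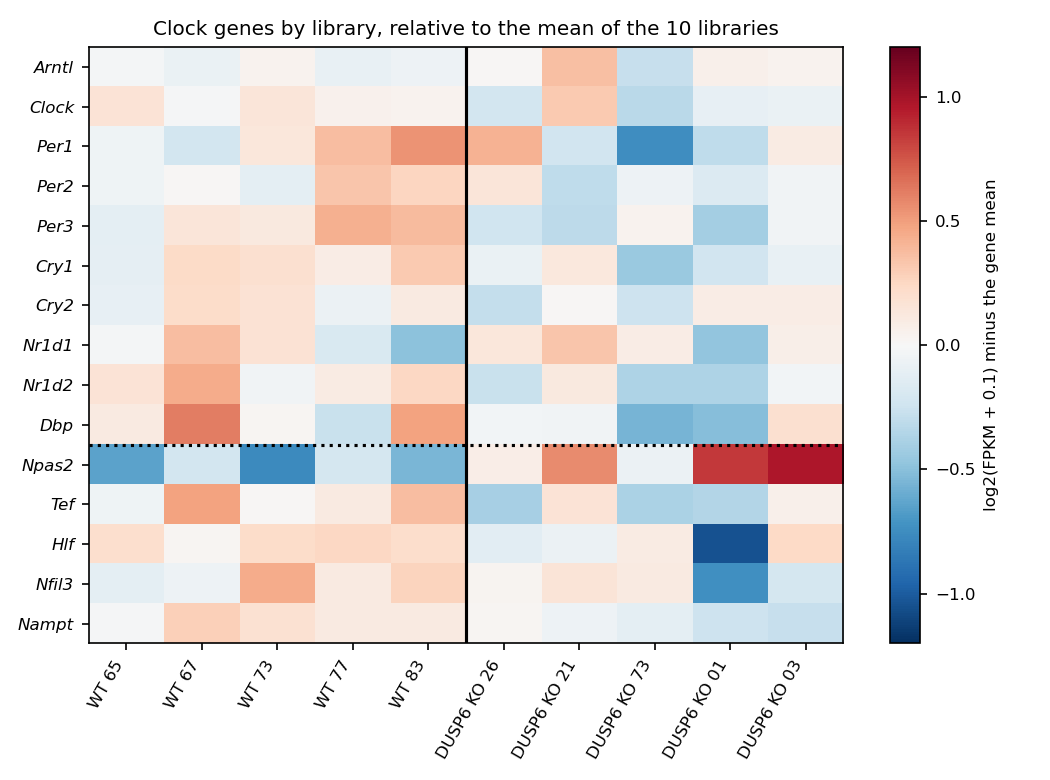
Each cell is log2(FPKM + 0.1) of a clock gene (rows) in a spleen (columns) minus the mean of that gene over the 10 libraries, the 10 genes above the dotted line and 5 other clock genes below it, with WT left of the solid line. Npas2 is below its mean in all 5 WT columns and above it in 4 of the 5 DUSP6 KO columns, and DUSP6 KO replicate 73 is blue for most of the 10 genes.

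Between mice, the 10 genes did not all have their lowest or highest value in the same library. DUSP6 KO replicate 73 was the lowest library for 6 of the 10, and WT replicate 67 the highest for 4. The mean log2 level of the 10 genes was 1.735, 1.815, 1.486, 1.535 and 1.795 in DUSP6 KO and 1.772, 1.947, 1.86, 1.852 and 1.957 in WT. DUSP6 KO replicate 73 also had the highest level of the erythroid markers (summed FPKM 105700) and of the red pulp macrophage markers (993). It had the lowest level of the B cell markers (616) and of the T cell markers (79.7). In bulk spleen RNA, fewer cells of a type and less RNA per cell cannot be told apart.

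Correlations over the 10 libraries were computed for the 45 pairs of the 10 genes, and 0 had an adjusted permutation p of 0.05 or less, whereas 8 had an unadjusted p under 0.05 by Pearson and 7 by Spearman. All 8 were positive, and 37 of the 45 coefficients were above 0. The closest pair was Nr1d2 and Dbp, with r = 0.83 (permutation p = 0.00333, adjusted p = 0.145) and rho = 0.78 (permutation p = 0.0111, adjusted p = 0.271). It gave r = 0.66 without the 2 libraries farthest from the median of Nr1d2, and r = 0.77 on deviations from the genotype means (permutation p = 0.0205, adjusted p = 0.459). Next was Cry1 and Nr1d2, with r = 0.79 (permutation p = 0.00646, adjusted p = 0.145), rho = 0.71 (permutation p = 0.0268, adjusted p = 0.271), 0.70 without the 2 farthest libraries and 0.62 within genotype. Nr1d2 and Dbp passed the threshold in limma voom values (r = 0.86, adjusted p = 0.0335) and without WT replicate 77 (r = 0.90, adjusted p = 0.0356).

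Arntl, whose daily peak is opposite to that of Dbp and Nr1d1, had no coefficient with them past the threshold over the spleens, and the sign was not stable. Arntl and Dbp had r = 0.10 (permutation p = 0.791) and rho = −0.03 (permutation p = 0.947), and Arntl and Nr1d1 r = 0.22 (permutation p = 0.544) and rho = 0.15 (permutation p = 0.681). Without the 2 libraries farthest from the Arntl median, r was −0.48 with Dbp, −0.05 with Nr1d1 and −0.82 with Nr1d2 (0.13 over all libraries). Its lowest coefficients were with Per3 and Per2. For Per3, r was −0.55 (permutation p = 0.0961, adjusted p = 0.348) and rho −0.71 (permutation p = 0.0261, adjusted p = 0.271). For Per2, r was −0.55 (permutation p = 0.0962, adjusted p = 0.348) and rho −0.66 (permutation p = 0.0427, adjusted p = 0.288). Per1, in contrast, had r = 0.13 with Arntl (permutation p = 0.735) and rho = −0.10. Arntl and Clock had r = 0.68 (permutation p = 0.0316, adjusted p = 0.237) but rho = 0.33 (permutation p = 0.347, adjusted p = 0.665), and r was −0.32 without the 2 libraries farthest from the Arntl median, so the relation over all libraries rests on those 2. On deviations from the genotype means, however, it was the closest of the 45 pairs, with r = 0.93 (permutation p = 0.00199, adjusted p = 0.0896) and rho = 0.85. Nr1d1 had coefficients of 0.21 with Nr1d2 and 0.23 with Dbp.

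**Figure D4:**
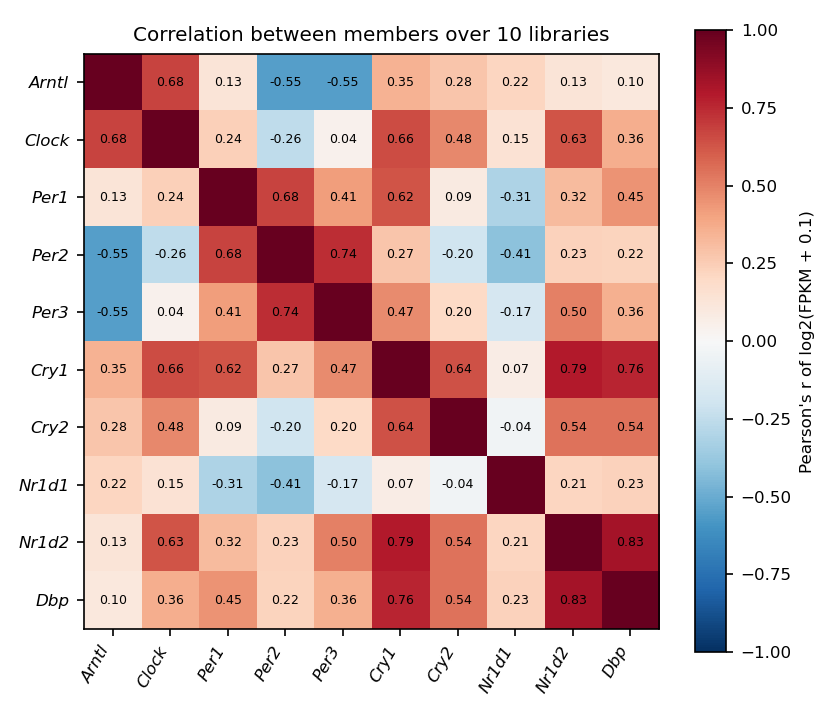
Each cell gives Pearson's r of log2(FPKM + 0.1) between a pair of the 10 genes over the 10 libraries, from −1 (blue) to 1 (red). Nr1d2, Dbp and Cry1 share the highest coefficients, with r of 0.76 to 0.83, and the lowest values, −0.55, are those of Arntl with Per2 and Per3.

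Among the genes most like Dbp over the 10 libraries, by Pearson's r among 13421 other genes averaging 1 FPKM or more, were Emp3 (r = 0.96), Slc15a4 (0.96), Rbm5 (0.96) and Bcl3 (0.95). Least like it were Abca3 (−0.97), Supt16 (−0.96), Mmadhc (−0.96), Slc45a4 (−0.96) and Ankrd61 (−0.95). Of the clock genes, Bhlhe40 stood at rank 233 from the highest (r = 0.87), Nr1d2 at 446, Tef at 619 (r = 0.81) and Cry1 at 1029 (r = 0.76). At the other end, Timeless stood at rank 419 from the lowest (r = −0.83), Btrc at 447 (r = −0.83) and Wee1 at 1042 (r = −0.77). The genes most like Arntl were Xxylt1 (r = 0.97), Inf2 (0.94), Sema3f (0.94), Rab12 (0.93) and Igkv3-5 (0.93), and the least like it were Psmb1 (−0.96), Gm26782 (−0.94), Tubd1 (−0.93), Gm11993 (−0.92) and Mbd3 (−0.92). No clock gene was among the 5 highest or the 5 lowest of either. These coefficients compare genes over the same libraries, which differ from each other in depth and in the levels of cell type markers, and carry no p.

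Levels of cell type markers varied between the spleens. Of 8 neutrophil markers, 6 were lower in DUSP6 KO at an unadjusted limma p under 0.05, against 3.03% of all genes tested. None of the 8 had an adjusted p of 0.05 or less. Their median was −1.14 on the log2 scale, with a summed level of 546 to 1887 FPKM in DUSP6 KO, against 1051 to 4922 FPKM in WT. Of the 8 erythroid markers, 0 passed at an unadjusted limma p under 0.05, with a summed level of 20360 to 105700 and 24420 to 50090 FPKM. Markers of B cells (616 to 1200 and 697 to 1564 FPKM) and T cells (79.7 to 161 and 96.5 to 139 FPKM), which define the spleen, were present in every library, and 0 of 6 in either list passed at an unadjusted limma p under 0.05. Of 6 markers each of red pulp macrophages (543 to 993 and 645 to 794 FPKM) and stroma (104 to 173 and 92.5 to 134 FPKM), 1 in each list was higher at that threshold (Adgre1 and Pdgfrb). Over all genes tested, 2.62% were higher at that threshold. The 8 exocrine pancreas genes summed to 9.55 to 26.2 FPKM in DUSP6 KO, against 13.4 to 13850 FPKM in WT, highest in WT replicates 67 and 65, and 1 of the 8 was at 0 in all libraries.

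Over 52 relations of clock genes to the mean log2 level of such a list, 0 had an adjusted permutation p of 0.05 or less and the lowest was 0.0785. That was Dbp with the B cell list, with r = 0.87 (permutation p = 0.00151), rho = 0.87 (permutation p = 0.00245, adjusted p = 0.121), 0.88 without the 2 farthest libraries and 0.88 within genotype. Per3 varied with the neutrophil list (r = 0.81, permutation p = 0.00424, adjusted p = 0.110, and rho = 0.76, permutation p = 0.015, adjusted p = 0.195), with r = 0.61 without the 2 farthest libraries and 0.67 within genotype. Nr1d2 ran opposite to the erythroid list (r = −0.72, permutation p = 0.02, adjusted p = 0.157, and rho = −0.68, permutation p = 0.0349, adjusted p = 0.204), with r = −0.66 without the 2 farthest libraries and −0.90 within genotype. So did Tef (r = −0.76) and Dbp (r = −0.73), both with an adjusted permutation p of 0.157, whereas Per2 had r = 0.27 and Per3 r = 0.09. With the B cell list, Nr1d2 had r = 0.69 and rho = 0.83, and Cry1 r = 0.66 and rho = 0.71. For both, the adjusted permutation p of r was 0.157. Npas2 had r = −0.66 with the neutrophil list (permutation p = 0.0374, adjusted p = 0.157; rho = −0.68, permutation p = 0.0348, adjusted p = 0.204), −0.79 without the 2 farthest libraries and −0.36 within genotype. With the erythroid list mean as a covariate, the log2 fold change of Nr1d2 was −0.33 (limma adjusted p = 0.207) and that of Npas2 1.012 (limma adjusted p = 0.253). Dbp also varied with the T cell list (r = 0.72, permutation p = 0.0185, adjusted p = 0.157, and rho = 0.68). There r was 0.50 without the 2 farthest libraries and 0.84 within genotype. The part of the neutrophil, B cell and T cell levels in the differences of Per3, Npas2, Dbp, Nr1d2 and Cry1 was not tested.

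Lists of genes that respond to glucocorticoid hormone and to temperature, both daily cues for clocks in peripheral organs, were read beside the clock genes. Of 10 glucocorticoid response genes, 9 were tested. Of these, 1 was higher and 0 were lower at an unadjusted limma p under 0.05, and the median was −0.09 on the log2 scale. That gene was Dusp1, a phosphatase of the same family as Dusp6, with 21.01 ± 4.72 FPKM in DUSP6 KO against 13.1 ± 1.69 in WT, without overlap (log2 fold change 0.66, SE 0.15, limma adjusted p = 0.344, exact permutation p = 0.00794). Of 11 temperature response genes, 0 were higher and 1 was lower, with a median of −0.06. That gene was Hspb1, which encodes a small heat shock protein, at 12.2 ± 3.34 and 24.9 ± 5.47 FPKM without overlap (log2 fold change −1.05, SE 0.22, limma adjusted p = 0.299, exact permutation p = 0.00794). No gene of either list had an adjusted p of 0.05 or less in this limma fit. The paper, with a test on read counts of these spleens, does list Hspb1 as lower in DUSP6 KO at an adjusted p under 0.05. Over all genes tested here, 2.62% were higher and 3.03% lower at an unadjusted limma p under 0.05, and 1.11% had groups that did not overlap.

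**Figure D5:**
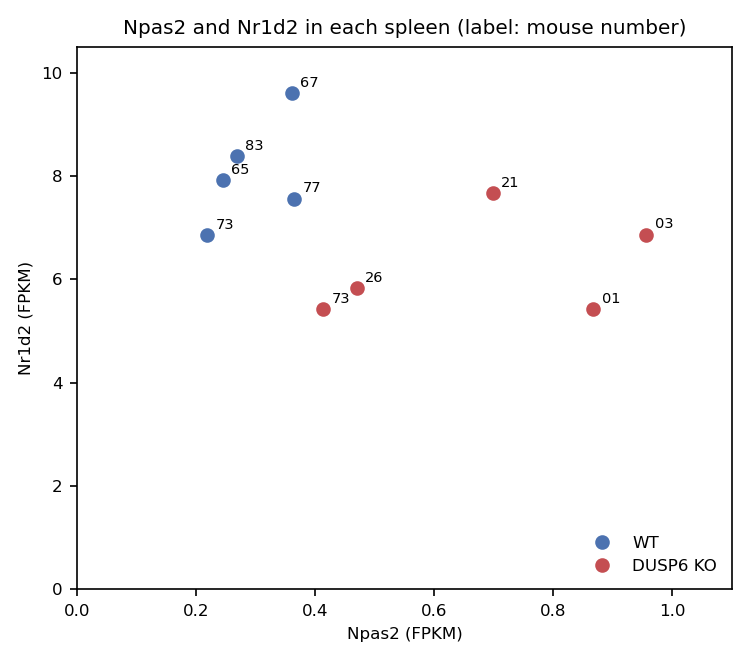
Nr1d2 (vertical axis, FPKM) is plotted against Npas2 (horizontal axis, FPKM) in each of the 10 spleens, WT in blue and DUSP6 KO in red, labelled by mouse number. The groups separate along Npas2 (WT at 0.218 to 0.364 FPKM, DUSP6 KO at 0.413 to 0.956) and overlap along Nr1d2 (6.85 to 9.61 and 5.43 to 7.66).

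The clock genes with a higher and a lower mean in DUSP6 KO can be read together in each spleen, as a ratio that does not depend on library depth. Nr1d2 over Npas2 was 12.4, 10.98, 13.1, 6.26 and 7.18 in DUSP6 KO and 32.5, 26.6, 31.4, 20.8 and 31.3 in WT. Per3 over Npas2 was 0.776 to 2.32 in DUSP6 KO against 2.87 to 4.65 in WT, and Dbp over Npas2 was 3.86 to 10.02 and 10.9 to 25.3. These 3 ratios did not overlap between the groups, as Npas2 alone did not. They were chosen after the values were seen and carry no test. Against Arntl in place of Npas2, Nr1d2 had ratios of 1.99 to 2.56 in DUSP6 KO against 2.55 to 3.91 in WT, and Dbp 1.23 to 2.06 and 1.63 to 3.02, both with overlap. A difference in the hour of collection between the groups and a difference between genotypes cannot be told apart here, since no hour is given for any spleen.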

How the data were processed

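Spleen RNA of 5 DUSP6 KO and 5 WT mice was sequenced as 1 library per mouse, grouped by the genotype in the sample labels. The authors used Hisat2 for alignment and featureCounts 1.5.0-p3 for gene counts and deposited FPKM values for 54532 genes. The labels name a human genome build, whereas 53585 of these genes (98.3%) have identical coordinates in GENCODE mouse release 21 (GRCm38), used here for positions. Read counts were recovered from FPKM and gene length (100% of values within 0.001 of a whole read) and gave the depth and the voom alternative. Count models were not used, since the deposited unit is FPKM.

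The functions lmFit and eBayes (with trend) of limma 3.58.1, in R 4.3.3, were run on log2(FPKM + 0.1) with Benjamini-Hochberg adjustment, and exact permutation tests were two-sided. Correlations used 100000 resamples drawn with numpy 2.4.6, and the exact permutation tests used scipy 1.17.1. The fit was tested on simulated data. The counting coefficient of variation is that of Poisson counting of the reads in each library and covers counting error only. The genes and lists were chosen with earlier results of these data known. Named genes are the 10, the other clock genes with an unadjusted p under 0.05 or without overlap, 5 fixed ones (Npas2, Tef, Hlf, Nfil3 and Bhlhe41), the 5 most and least like Dbp and Arntl (of which 1 is not reported here), and genes of the glucocorticoid and temperature lists with an unadjusted p under 0.05. The kinase and ligase genes, Bhlhe40, Timeless, Wee1, Arntl2, Rorb, Adgre1 and Pdgfrb, the ratios and the relations to cell lists were chosen after their values were seen. Alternatives were other pseudocounts (1 and 0.01), a minimum mean of 1 FPKM, no filter, quantile normalization, rescaling without haemoglobin, mitochondrial, immunoglobulin and T cell receptor genes, voom, and leaving out each library.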

Additional observations from a re-analysis of the deposited data

Results flagged for a closer look

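Among 58 groups of 5 values examined for a sample far from the others, 3 were flagged, and chance flags about 1 in 20 groups. Hlf in WT replicate 67 was the lowest of the WT group at 0.5018 FPKM, with the nearest WT spleen at 0.5777 FPKM. The mean log2 level of the glucocorticoid response list in WT replicate 65 was the lowest of the WT group at 2.421, with the nearest at 2.751. The total reads of WT replicate 67 were the highest of the WT group at 18422147 (1.842e+07), with the nearest at 16348136. None of the 10 clock genes was flagged.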

How the results depend on the processing

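Over 19 alternative settings, 2 of them chosen after seeing the data (WT replicates 65 and 67 left out, and the erythroid list mean as a covariate), none of the 16 named clock genes reached an adjusted limma p of 0.05. An unadjusted p under 0.05 was kept by Nr1d2 in 18 of 19, Nampt in 19 of 19, Npas2 in 18 of 18, Tef in 13 of 19, Cry1 in 10 of 19 and Per3 in 8 of 18, and gained by Dbp in 3 of 19 and by Per1 and Clock in 1 of 19 each. The direction reversed for Nr1d1 without DUSP6 KO replicate 21 (−0.0138) and without WT replicate 83 (−0.0533), with a range of −0.0533 to 0.187 over the libraries left out, and for Bhlhe41 without WT replicate 73 (0.0249, with a range of −0.303 to 0.0249). With each library left out, 1 to 3 of the 10 genes were lower at an unadjusted p under 0.05 (1 without DUSP6 KO replicate 01 or WT replicate 67, 73 or 83), and so were 1 to 3 of the further clock genes (1 without DUSP6 KO replicate 26, 73 or 01 or WT replicate 67 or 83). Positive pairs past the adjusted threshold numbered 0 to 1 (1 without WT replicate 77), and 2 with voom. Over all genes, 6 to 21 were higher at an adjusted p of 0.05 or less (21 without DUSP6 KO replicate 21) and 4 to 13 lower (13 without DUSP6 KO replicate 21, 4 without WT replicate 83). A minimum mean of 1 FPKM tested fewer genes (13422) and gave 349 higher and 409 lower at an unadjusted p under 0.05, 4 lower past the adjusted threshold, and 0 further clock genes higher, since Npas2 is below it. Without WT replicates 65 and 67, 1 further clock gene was lower. Where no cause is given, the cause was not tested. No paired analysis was made, since the sources used here give no pairing of DUSP6 KO with WT mice.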
